A study of Mus musculus with 15 samples.

Results

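Sham-operated mouse forebrain made up 1 of 3 groups in a study of erythropoietin and brain injury, and its expression make-up is described here from its 5 arrays, of 15 in all. The members are the samples labelled VEH-Sham, replicates 1 to 5. These mice received vehicle 1 h before a sham operation. The other groups are VEH-HI (n = 5), given vehicle 1 h before hypoxic ischemia, in which blood flow and oxygen are restricted, and EPO-HI (n = 5), given erythropoietin intraperitoneally at 5 U/g body weight 1 h before the same injury. A vehicle injection was therefore common to VEH-Sham and VEH-HI. The labels name no genotype, strain, age or sex, and neither the interval from operation to sampling nor any pooling of animals. The labels do not say that replicates are separate animals, so the spread between them may be technical. Total RNA of whole forebrain was hybridised to oligonucleotide arrays, 1 array a sample.

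The forebrain holds cortex, striatum, hippocampus, thalamus and hypothalamus, so a whole-forebrain extract mixes neurons of many kinds with glia, vessels and membranes. Growing neurons build axons and dendrites from microtubules and actin, and tubulins, stathmins and thymosins are among their typical abundant transcripts. Radial glia and astrocytes carry fatty acid binding proteins and glutamate uptake proteins, and in rodents most myelin is made after birth, when oligodendrocyte precursors mature. In bulk tissue, fewer cells of a type and less RNA per cell cannot be told apart.

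A level is the mean over the 5 arrays of log2(intensity + 16) of a gene's brightest probe set, and 18193 genes had one. Probe sets differ in how well they bind, so a rank orders array signal, not the number of transcripts. Levels ran from 4.07 to 13.49, with a median of 6.80. The top 10% of genes by level (1819) began at 9.40, and the brighter 50% (9096) at 6.80. All values within VEH-Sham are descriptions without a test, since they come from 1 group. Every array, as deposited, had a trimmed mean intensity of 150. The median intensity was 55.3 to 57.9 on VEH-Sham 1 to 4 and 39.8 on VEH-Sham 5, against 39.2 to 44.4 on the 10 VEH-HI and EPO-HI arrays. Pearson correlations across probe sets, which are not independent replicates, were 0.966 to 0.969 among VEH-Sham 1 to 4 and 0.950 to 0.953 between these and VEH-Sham 5. The 3′ to 5′ ratio of the Gapdh control probe sets, a sign of RNA integrity and labelling, was 0.634 to 0.719 on VEH-Sham 1 to 4 and 0.731 on VEH-Sham 5. The same ratio of the Actb control probe sets was 1.28 to 1.40 on VEH-Sham 1 to 4 and, within that range, 1.36 on VEH-Sham 5. Because of its median and its correlations, VEH-Sham 5 is given apart where single arrays or the spread over VEH-Sham 1 to 4 are given. Levels, ranks, list medians and SDs marked n = 5 pool all 5 arrays. Such an SD therefore includes any offset of VEH-Sham 5.

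The brightest signals came mostly from genes of protein synthesis and the cytoskeleton. Rps29, a protein of the small ribosomal subunit, stood first at 13.49 ± 0.09 (SD, n = 5), with 13.56, 13.42, 13.55, 13.36 and 13.56 on VEH-Sham 1 to 5. Eef1a1, the elongation factor that brings aminoacyl-tRNA to the ribosome, followed at 13.34 ± 0.11 (SD, n = 5). The neuronal tubulins Tuba1a and Tubb2b came next. Tuba1a read 13.34, 13.24, 13.37, 13.16 and 13.43 on VEH-Sham 1 to 5, and Tubb2b 13.36, 13.17, 13.33, 13.22 and 13.00. The 5 arrays thus lay within a narrow band for both, with VEH-Sham 5 highest for Tuba1a and lowest for Tubb2b. Hspa8, a constitutive chaperone, had a level of 13.21 ± 0.08 (SD, n = 5).

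Ttr, the thyroxine and retinol carrier secreted by the choroid plexus, was sixth in rank, with 13.12, 12.99, 13.04, 12.99 and 13.37 on VEH-Sham 1 to 5. It was highest on VEH-Sham 5. The actin-sequestering thymosins Tmsb10 (13.08 ± 0.17, SD, n = 5) and Tmsb4x (13.07 ± 0.15, SD, n = 5) stood beside Tpt1. Tpt1, a growth-related calcium-binding protein, stood at 13.10 ± 0.17 (SD, n = 5). Fabp7, the fatty acid binding protein of radial glia, read 13.17, 13.03, 12.98, 12.97 and 13.20, a level of 13.07. The rest of the 30 brightest ran down to Rps7 at 12.85. They comprised the ribosomal proteins Rpl38, Rpl41, Rps14, Rpl13a and Rps20, the actins Actg1 and Actb, and the tubulin Tubb2a. They also held the tubulin-binding stathmins Stmn1 and Stmn3, the microtubule-tip protein Mapre2 and the actin-binding profilin Pfn2. The remaining genes were the aldehyde reductase Akr1a1, the lipid carrier Fabp5, the mitochondrial ADP/ATP exchanger Slc25a4, the prohormone-trimming enzyme Cpe, the neuronal membrane protein Gpm6a, the ferritin heavy chain Fth1 and the 14-3-3 protein Ywhab.

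**Figure D1:**
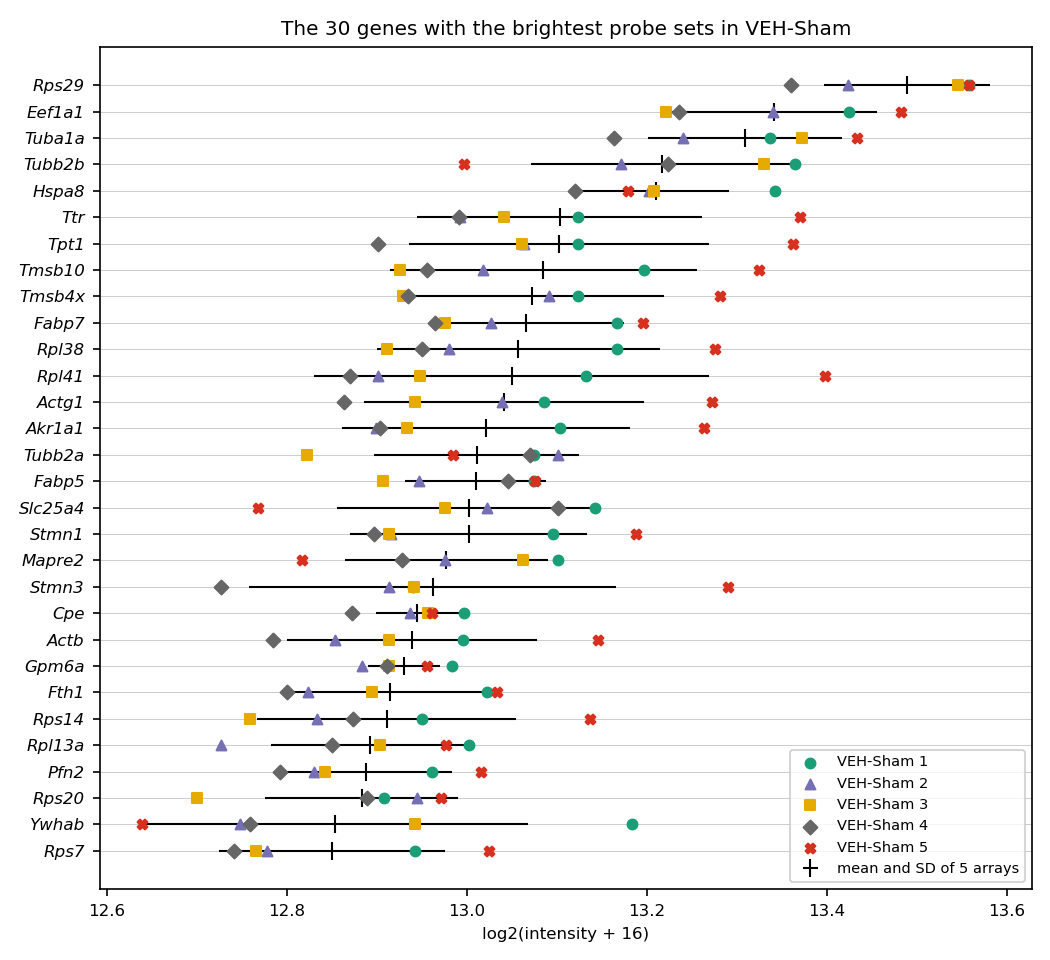
Levels of the 30 genes with the brightest probe sets, as log2(intensity + 16) on each of the 5 VEH-Sham arrays (coloured symbols) with the mean and SD of the 5 (black). VEH-Sham 5 (red cross) lies above all of VEH-Sham 1 to 4 for 21 of the 30 genes and below them for 4. Over the top 10% of genes it lies above for 53.6% and below for 16.5%. VEH-Sham 5 also entered the levels that chose the 30 genes.

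The 100 brightest genes, 0.55% of those ranked, lay between 12.28 and 13.49. Their probe sets held 12.1% to 13.1% of the summed intensity of all genes' brightest probe sets on each array. Cytosolic ribosomal proteins filled 23 of the 100 places, from 57 such genes measured, and 37 of the 57 were in the top 10%. Subunits of the respiratory chain and ATP synthase filled 8 places, and 72 of their 102 genes were in the top 10%. Tubulins had 4 of 15 genes and actins with thymosins 4 of 8 genes among the 100. When probe sets with the suffix a, s or x, which can match related sequences, were left out, the 100 brightest held 5 of 32 measured ribosomal, 10 of 83 respiratory, 2 of 14 tubulin and 1 of 5 actin and thymosin genes. Heat shock proteins had 3 of 71 genes and translation factors 2 of 58 there, while 25 histone genes and 6 haemoglobin genes had none. Of the haemoglobins, none reached the top 10%, and 1 histone gene did. The 932 probe sets with several symbols were left out, so these counts need not hold for all genes of either family. The single ubiquitin gene matched by name was in the top 10%, and the single calmodulin gene so matched, at 4.60, was not. With 1 gene matched in each, neither stands for its family.

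Ranking by VEH-Sham 1 to 4 alone and by VEH-Sham 5 alone gave 88 of 100 brightest genes in common. The VEH-Sham ranking shared 84 of its 100 with VEH-HI and 88 with EPO-HI. The choice of probe set mattered more. Of the 100 brightest, 80 were read from probe sets with the suffix a, s or x (38, 11 and 31), which the array's design marks as matching several transcripts or related sequences, against 21% of all genes. With those probe sets left out, 69 of the 100 genes still had a probe set and 38 stayed among the 100 brightest. With the mean over a gene's probe sets, 54 stayed. Signals of tubulins, actins and ribosomal proteins, which have near-identical relatives and pseudogenes, may therefore be shared among copies.

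The DNA just upstream of some of these genes is shown because they share a high signal. For Eef1a1 (chr9:78481725-78481784, minus strand), Tuba1a (chr15:98953502-98953561, minus strand) and Tubb2a (chr13:34078009-34078068, minus strand), the 60 bases before the transcription start are printed 5′ to 3′ from RefSeq, assembly GRCm38.p6, with any TATAAA in capitals.
Eef1a1: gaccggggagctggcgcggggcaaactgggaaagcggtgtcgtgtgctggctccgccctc
Tuba1a: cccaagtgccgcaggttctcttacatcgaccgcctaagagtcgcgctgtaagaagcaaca
Tubb2a: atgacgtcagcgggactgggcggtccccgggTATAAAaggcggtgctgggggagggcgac
The motif TATAAA, searched on both strands, was in 1289 of 32851 such windows of all genes (3.92%). Of the 30 brightest genes, 18 were matched to the RefSeq table, with 22 windows. Tubb2a alone among them held it, starting 29 bases before the start. The median share of G and C was 65% in these 22 windows and 55% in all. A match is a description of letters only.

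Neuronal genes filled the upper part of the range. Of 19 measured pan-neuronal genes, of 20 listed, 17 were in the top 10% of genes, and the median level was 11.12. Stmn3, Stmn2, the growth-cone protein Gap43 and the dendritic microtubule protein Map2 were the brightest. Gap43 read 12.62, 12.67, 12.52, 12.58 and 13.04 on VEH-Sham 1 to 5, and Map2 12.06, 12.14, 12.04, 11.91 and 12.11. VEH-Sham 5 was the highest array for Gap43 by 0.37 and close to the others for Map2. Camk2a, the kinase of mature excitatory synapses, was the dimmest of the 19 at 8.72 ± 0.39 (SD, n = 5), and with the surface protein Thy1, at 9.84 ± 0.45 (SD, n = 5), it varied most over VEH-Sham 1 to 4. The middle neurofilament Nefm read 9.23, 9.52, 9.31, 8.91 and 9.80, highest on VEH-Sham 5. VEH-Sham 5 lay above all of VEH-Sham 1 to 4 for 14 of the 19 genes. Over the brighter 50% of genes VEH-Sham 5 was above all 4 for 34.2% and below all 4 for 27.4%, and over the top 10% it was above for 53.6%.

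Genes of immature neurons were bright as well. Of 18 measured, 15 were in the top 10%, with a median level of 11.85. Tuba1a, Tubb2b, Tmsb10 and Stmn1 led this list. Nrep, a protein of regenerating neurons, read 12.79, 12.98, 12.53, 12.98 and 12.30 on VEH-Sham 1 to 5, lowest on VEH-Sham 5. Cd24a, a surface protein of young neurons, read 11.65, 12.07, 11.70, 11.49 and 12.25, highest on VEH-Sham 5. Dcx, the doublecortin gene of migrating neurons, named after its values were seen, read 10.15, 10.37, 10.56, 10.66 and 10.82. Igfbpl1 was the exception at 5.08 ± 0.46 (SD, n = 5), among the dim genes. Read without the suffixed probe sets, 15 of the 18 genes remained and 11 of them were in the top 10%.

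**Figure D2:**
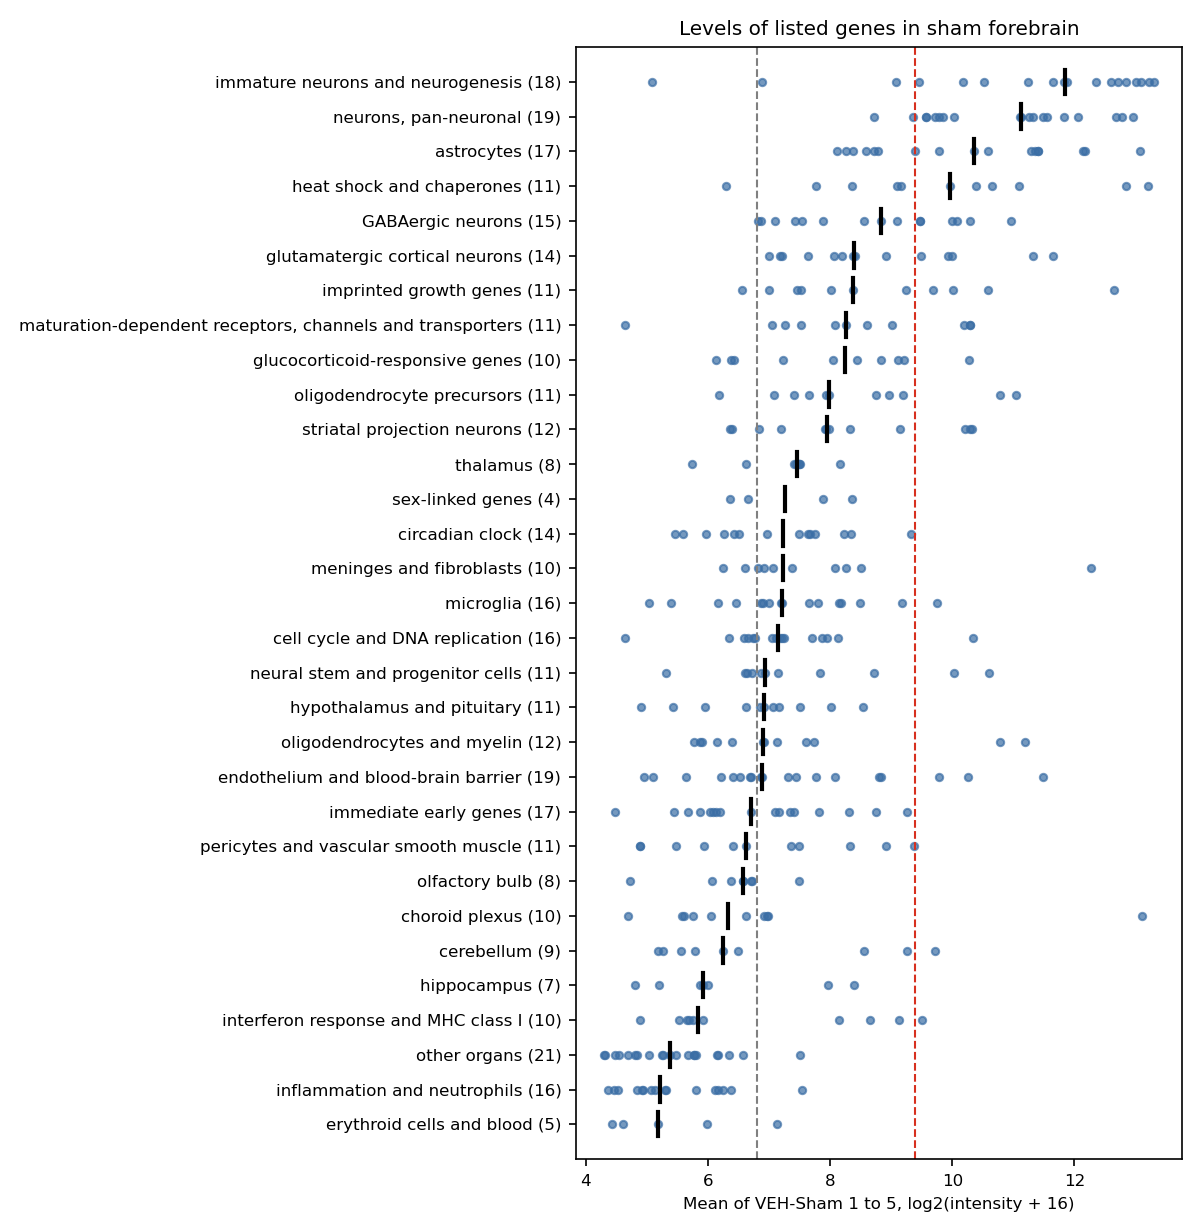
Levels of the measured members of 31 gene lists, as the mean of VEH-Sham 1 to 5 in log2(intensity + 16). Each blue point is a gene, the black bar is the list's median, the number of genes measured is in brackets, the grey dashed line marks the brighter 50% (6.80) and the red one the top 10% (9.40). The medians run from 5.18 for erythroid genes to 11.85 for immature neurons.

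Genes of single neuron classes were spread lower. Of 14 glutamatergic cortical genes measured, of 16 listed, 5 were in the top 10%, with a median level of 8.39. Mef2c, a transcription factor of cortical neurons, stood at 11.65 ± 0.18 and Neurod6 at 11.33 ± 0.27 (SD, n = 5 each). Neurod6 read 11.36, 11.23, 11.54, 11.60 and 10.93, lowest on VEH-Sham 5. The vesicular glutamate transporter Slc17a6, typical of subcortical and young neurons, stood at 10.00 ± 0.17 (SD, n = 5). The layer markers Fezf2 and Rorb lay at 7.18 and 7.22. Rorb read 7.27, 7.41, 7.01, 7.65 and 6.73, and Fezf2 7.20, 7.06, 6.97, 7.05 and 7.60, so VEH-Sham 5 was the lowest array for one and the highest for the other.

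All 15 GABAergic genes were measured, and 6 were in the top 10%, with a median level of 8.83. Gad1, which makes GABA, read 11.05, 10.91, 11.09, 10.90 and 10.86, a level of 10.96. The interneuron peptides Sst (10.28 ± 0.14, SD, n = 5) and Cck (10.07 ± 0.09, SD, n = 5) and the calcium buffer Calb1 (10.00 ± 0.09, SD, n = 5) followed. Pvalb, the parvalbumin of fast-spiking interneurons, stood at 7.09 ± 0.31 (SD, n = 5), with 7.12, 7.44, 7.30, 6.66 and 6.96. Calb2, or calretinin, read 8.83, 9.16, 9.11, 8.78 and 9.63, and Reln, the reelin of layer 1 neurons, 9.58, 9.31, 9.36, 9.22 and 9.89. Both were highest on VEH-Sham 5.

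Striatal projection neuron genes had a median of 7.96, and 3 of 12 measured, of 14 listed, were in the top 10%. Pde10a, a phosphodiesterase of striatal neurons, read 10.66, 10.51, 10.02, 10.67 and 9.73. Tac1, the substance P precursor, read 10.48, 10.27, 10.51, 10.50 and 9.70. Both were lowest on VEH-Sham 5, by 0.29 and 0.57 below the next array. Meis2, a striatal transcription factor, moved the other way, with 10.14, 10.05, 10.08, 10.14 and 10.67. This probe set of Meis2 carries a suffix, and 1 of its 3 other probe sets was also higher on VEH-Sham 5. Penk, the enkephalin precursor, stood at 9.14 ± 0.17 (SD, n = 5), with 9.39, 9.20, 9.12, 8.95 and 9.04.

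Region markers of other brain parts were mostly in the middle and lower range. None of 7 hippocampal, 8 thalamic, 8 olfactory bulb or 11 hypothalamic and pituitary genes, of 12 listed, reached the top 10%, and 1 of 9 cerebellar genes did. The median levels were 5.92, 7.46, 6.57, 6.91 and 6.24 in that order. Zbtb20 (8.39 ± 0.19, SD, n = 5) led the hippocampal genes and Ntng1, an axon guidance protein of thalamic neurons, the thalamic ones (8.16 ± 0.28, SD, n = 5). The cerebellar gene in the top 10% was Zic1, which other forebrain cells also express, at 9.72 ± 0.49 (SD, n = 5). Cerebellar Pcp2 of Purkinje cells stood at 6.24 and Gabra6 of granule cells at 5.57. Oxt, the oxytocin precursor of the hypothalamus, read 8.44, 8.77, 8.86, 8.63 and 7.98, and Pmch, the melanin-concentrating hormone precursor, 7.96, 7.82, 8.07, 8.01 and 8.19.

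Astrocyte genes were all in the brighter 50%. Of 17 measured, 10 were in the top 10%, with a median level of 10.36. After Fabp7 came Sparcl1, a secreted synapse-modifying protein, at 12.17 ± 0.23 and the lipid carrier Apoe at 12.14 ± 0.17 (SD, n = 5 each). Glul, glutamine synthetase, read 11.83, 11.73, 11.03, 11.13 and 11.31. VEH-Sham 1 and 2 lay above the other arrays. Slc1a2, the main glutamate transporter of mature astrocytes, read 10.08, 9.90, 9.46, 9.20 and 10.31, lowest on VEH-Sham 3 and 4. Aldh1l1, a folate enzyme used as an astrocyte marker, stood at 8.37 ± 0.26 (SD, n = 5) and was highest on VEH-Sham 5. Without the suffixed probe sets, 7 of 13 astrocyte genes were in the top 10%.

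Myelin genes were divided. Mbp, the basic protein of myelin, read 11.24, 11.26, 11.18, 10.77 and 11.48 on VEH-Sham 1 to 5, and Cnp, a myelin phosphodiesterase, 11.20, 11.12, 10.56, 10.23 and 10.77. Both were lowest on VEH-Sham 4 and were the 2 of 12 measured myelin genes, of 13 listed, in the top 10%. The median of the list was 6.91. Mag, an adhesion protein of myelin, read 7.49, 7.03, 6.29, 6.76 and 7.03, and Ermn, a late myelin protein, stood at 5.77. Mog (5.91) and Opalin (6.15), late myelin proteins named after their values were seen, lay in the dimmer 50% too. Sox10, the lineage's transcription factor, read 7.27, 7.06, 7.58, 7.33 and 6.45, lowest on VEH-Sham 5. Both Mbp and Cnp were read from suffixed probe sets, and without such probe sets none of 9 myelin genes was in the top 10%.

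Oligodendrocyte precursor genes had a median of 7.99, and 2 of 11 measured, of 12 listed, were in the top 10%. These were Ptprz1, a receptor phosphatase that radial glia also carry, at 11.04 ± 0.12 and Olig1, a transcription factor of the lineage, at 10.79 ± 0.20 (SD, n = 5 each). Pdgfra, the growth factor receptor that defines the precursors, read 9.29, 9.20, 8.97, 9.21 and 9.30. Gpr17, a receptor of differentiating precursors, read 9.12, 8.93, 8.83, 8.92 and 9.05. Both were alike on all 5 arrays. Cspg4, the NG2 proteoglycan, stood at 6.18 ± 0.26 (SD, n = 5).

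Microglial genes had a median of 7.21, and Csf1r, their growth factor receptor, was the 1 of 16 measured, of 17 listed, in the top 10%. It read 9.87, 10.04, 9.31, 9.42 and 10.06 on VEH-Sham 1 to 5. The protease Ctss stood at 9.18 ± 0.16, the complement genes C1qb at 8.48 ± 0.15 and C1qa at 8.19 ± 0.13 (SD, n = 5 each). The integrin Itgam was dim at 5.04 ± 0.57 (SD, n = 5), as was Trem2 at 5.40 ± 0.45 (SD, n = 5). Itgam read 5.24, 5.55, 5.24, 5.11 and 4.07, lowest on VEH-Sham 5.

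Vascular and membrane genes lay lower. For endothelium and the blood-brain barrier the median was 6.89 and 3 of 19 measured genes, of 20 listed, were in the top 10%. They were Bsg, a lactate transporter partner that many cells carry, at 11.48 ± 0.21, Itm2a at 10.25 ± 0.10 and the thyroid hormone transporter Slco1c1 at 9.79 ± 0.11 (SD, n = 5 each). Cldn5, the claudin of brain endothelial tight junctions, read 8.90, 8.89, 8.59, 8.89 and 8.89. Pecam1, an endothelial adhesion protein, read 4.85, 4.61, 4.74 and 4.82 on VEH-Sham 1 to 4 and 6.49 on VEH-Sham 5. The mean was 6.51 in VEH-HI and 6.46 in EPO-HI, so VEH-Sham 1 to 4 were the arrays that stood apart, all on the low side.

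None of 11 pericyte and smooth muscle genes was in the top 10%, with a median of 6.63. Rgs5, a pericyte regulator of G-protein signalling, was just below it at 9.38 ± 0.21 (SD, n = 5). Myh11, the myosin of smooth muscle, read 6.05, 5.87, 5.63, 5.12 and 4.76, lowest on VEH-Sham 5. Of 10 genes of meninges and fibroblasts, 1 was in the top 10%, with a median of 7.23. This was Ptgds, a prostaglandin synthase that other brain cells also make, with 11.99, 12.29, 12.22, 12.14 and 12.74. The collagen Col3a1 stood at 8.51 ± 0.15 (SD, n = 5). VEH-Sham 5 was above all of VEH-Sham 1 to 4 for 8 of these 10 genes, against 34.2% of the brighter 50% of genes.

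Of 10 choroid plexus genes measured, of 12 listed, Ttr alone was in the top 10%, and the median was 6.34. The folate receptor Folr1 stood at 6.97 ± 0.22, Clic6 at 6.98 ± 0.28 and the water channel Aqp1 at 5.76 ± 0.57 (SD, n = 5 each). Erythroid genes had a median of 5.18 over 5 measured, of 10 listed, led by the haem synthesis gene Alas2 at 7.13 ± 0.26 (SD, n = 5). Listed genes not measured have no level here, so this median does not stand for all globin signal. Hbb-b2, a beta-globin gene outside the list and named after its values were seen, was brighter, with 9.46, 8.70, 8.69, 9.02 and 7.46 from a suffixed probe set. It was lowest on VEH-Sham 5.

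Progenitor and cell cycle genes were in the middle range. Of 11 stem and progenitor genes measured, of 12 listed, 2 were in the top 10%, with a median of 6.93. Vim, the intermediate filament of radial glia, read 10.58, 10.70, 10.66, 10.51 and 10.57, and the transcription factor Sox2 10.10, 9.97, 10.07, 9.98 and 9.99. Hes5, a Notch target of progenitors, stood at 8.73 ± 0.11 (SD, n = 5). Cell cycle genes had a median of 7.15 over 16 measured, of 17 listed. Pcna, the sliding clamp of DNA replication, was the 1 in the top 10%, at 10.33 ± 0.16 (SD, n = 5). Mki67, the proliferation marker, read 5.75, 6.24, 6.45, 6.54 and 6.74.

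Imprinted growth genes, which are silenced by parental origin and often fall after birth, had 4 of 11 measured genes, of 12 listed, in the top 10% and a median of 8.37. Ndn, or necdin, of postmitotic neurons, read 12.65, 12.49, 12.62, 12.47 and 12.98. The long noncoding RNA Meg3 read 10.18, 10.86, 10.43, 10.87 and 10.55, and Igf2, an insulin-like growth factor, 9.05, 9.35, 8.94, 9.08 and 9.77. Ndn and Igf2 were highest on VEH-Sham 5.

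Receptors, channels and transporters that change as neurons mature had 3 of 11 measured genes, of 14 listed, in the top 10%, and a median of 8.27. Slc12a5, the chloride exporter of maturing neurons, stood at 10.29 ± 0.15 (SD, n = 5). The GABA receptor subunit Gabra5 stood at 10.28 ± 0.09 and Gabra2 at 10.19 ± 0.29 (SD, n = 5 each). The early glutamate receptor subunit Grin2b read 8.46, 7.67, 8.09, 8.38 and 7.77. Grin2a, the subunit that rises with maturation, read 4.55, 4.38, 4.30, 4.69 and 5.30. Such levels come from different probe sets and give no ratio of one subunit to the other.

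Genes that respond to activity, stress or infection covered a wide range. Heat shock and chaperone genes had a median of 9.96, and 6 of 11 measured, of 12 listed, were in the top 10%. Hspa8 and Hsp90aa1 (12.84 ± 0.07, SD, n = 5) led them. The stress-induced Hspa1a stood at 6.29 ± 0.25 (SD, n = 5). Of 17 immediate early genes, none was in the top 10% and the median was 6.71. The transcription factor Egr1 read 8.25, 8.32, 8.35, 8.26 and 8.34, alike on all 5 arrays. Of 14 circadian clock genes measured, of 15 listed, none was in the top 10%, with a median of 7.23 and Nr1d2 the brightest at 9.33. Of 10 glucocorticoid-responsive genes, Klf9 was the 1 there, at 10.28 ± 0.10 (SD, n = 5), and the median was 8.24. Interferon and MHC class I genes had a median of 5.84 over 10 measured, of 12 listed, with B2m the 1 in the top 10% at 9.51 ± 0.13 (SD, n = 5). Inflammation and neutrophil genes had a median of 5.22 over 16 genes, none in the top 10%, led by the chemokine Cxcl1 at 7.53 ± 0.55 (SD, n = 5).

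Genes of other organs give a scale for dim signal, since liver, muscle, lung, pancreas and testis products should be near absent from forebrain. Of 21 measured, of 24 listed, 1 was in the brighter 50%, the skeletal muscle actin Acta1 at 7.51. The median was 5.38. Their mean level was 5.49 to 5.56 on VEH-Sham 1 to 4 and 5.04 on VEH-Sham 5. Several levels given here lie near or below that scale. They include Igfbpl1, Grin2a, Itgam, Trem2, Gabra6, Myh11, Pecam1 on VEH-Sham 1 to 4 and most inflammation genes, whose signal is thus close to that of genes not made in brain.

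Few genes of the brighter 50% varied among VEH-Sham 1 to 4. The SD over these 4 arrays was above 0.5 for 49 of 9096 genes in the brighter 50% (0.539%), above 0.75 for 6 and above 1 for 2. The values next to the limit were 0.5004 and 0.4996. The median SD fell from 0.43 in decile 2 of genes, counted from the dim end, to 0.11 in decile 10. Without VEH-Sham 1 the count was 84, and without VEH-Sham 4 it was 87. It was 13 with a pseudocount of 64, 96 after quantile normalization and 1500 without the filter on dim genes. Of the 49, the array farthest from the median was VEH-Sham 3 for 17, VEH-Sham 2 for 13, VEH-Sham 1 for 12 and VEH-Sham 4 for 7. Of 247 list members in the brighter 50%, 4 varied beyond the limit. They were Gh, Pomc, Mag and Eif2s3y.

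The 2 genes with the highest SD, Gh and Pomc, encode pituitary hormones. Gh, growth hormone, read 6.07, 6.55, 10.26, 6.13 and 5.22 on VEH-Sham 1 to 5, and Pomc, the precursor of corticotropin and beta-endorphin, 6.76, 6.45, 8.90, 6.30 and 6.15. Both were high on VEH-Sham 3 alone. Cga, the alpha chain shared by the pituitary glycoprotein hormones, lies in the dimmer 50% of genes and read 4.70, 5.46, 7.81, 4.65 and 4.51. VEH-Sham 3 exceeded the next array by 3.71 for Gh, 2.15 for Pomc and 2.35 for Cga. For Cga the other arrays lay below the mean of the genes of other organs, so the size of that gap is not exact. VEH-Sham 3 was the highest array for all 4 probe sets of Gh, both of Pomc and the 1 of Cga. The hypothalamic genes had no excess of that size on VEH-Sham 3. Oxt was highest there at 8.86, against 8.77 on VEH-Sham 2, and Pmch is given above. Otp read 7.50, 7.58, 7.54, 7.71 and 7.20. Avp, the vasopressin precursor, read 6.67, 6.89, 7.56, 6.95 and 7.73, highest on VEH-Sham 5 and next on VEH-Sham 3. Prl, prolactin, another pituitary hormone, read 4.77, 4.98, 4.33, 5.38 and 5.10, near the dim end of the range and lowest on VEH-Sham 3. Whether a piece of pituitary was in the VEH-Sham 3 sample was not tested.

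Outside VEH-Sham, the same 3 genes were high on EPO-HI 15. Gh read 11.09 there and 5.44 to 6.09 on the other 9 VEH-HI and EPO-HI arrays, Pomc 10.46 against 6.05 to 6.70, and Cga 8.78 against 4.19 to 4.54. The pair of arrays came from different groups. Upstream DNA of Pomc (chr12:3954885-3954944, plus strand) and Cga (chr4:34893719-34893778, plus strand) is shown because they moved together. As above, these are the 60 bases before the start in RefSeq's GRCm38.p6, 5′ to 3′, with TATAAA in capitals.
Pomc: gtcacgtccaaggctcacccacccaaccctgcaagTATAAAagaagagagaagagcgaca
Cga: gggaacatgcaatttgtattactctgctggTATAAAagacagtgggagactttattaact
Both windows held the motif, which 3.92% of all windows hold. It began 25 bases before the start in Pomc and 30 in Cga. Gh, which moved with them, had no entry in the RefSeq table used, so its upstream bases were not searched.

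**Figure D3:**
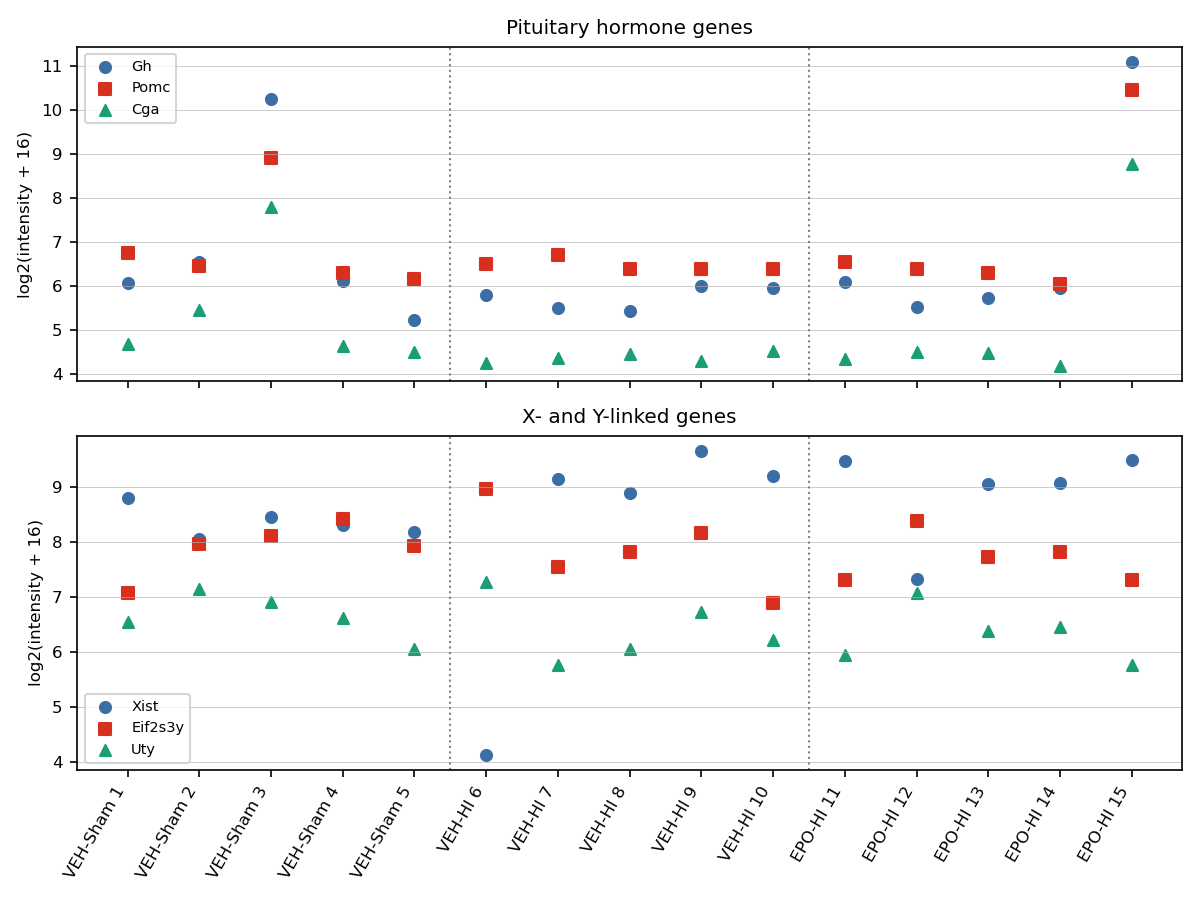
Levels of Gh, Pomc and Cga (top) and of Xist, Eif2s3y and Uty (bottom) on all 15 arrays, as log2(intensity + 16) of each gene's brightest probe set, with dotted lines between the groups. The 3 hormone genes stand high on VEH-Sham 3 and EPO-HI 15, and Xist stands low on VEH-HI 6.

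The other 18 of the 20 most variable genes belonged to none of the lists. Serpinb6e, a protease inhibitor, read 8.40, 9.52, 7.76, 7.21 and 8.33 on VEH-Sham 1 to 5. Ces5a, a carboxylesterase, read 8.85, 8.16, 6.78, 7.91 and 8.07. Dync1li1, a light intermediate chain of dynein, read 7.20, 8.85, 7.55, 7.13 and 7.25, high on VEH-Sham 2 alone. Ctsf, cathepsin F, read 5.75, 7.21, 7.11, 7.35 and 7.19, low on VEH-Sham 1 alone. Glrb, the beta subunit of the glycine receptor, was the brightest of the 20. It read 9.87, 11.25, 11.23, 11.25 and 10.29, so VEH-Sham 1 and 5 lay below the other arrays. Oat, ornithine aminotransferase, split otherwise, with 8.83, 9.82, 9.84, 8.72 and 10.08. The others were Zdhhc12, Sema3f, St7, Chtf8, Pop4, Fhit, Zfp945, Kansl3, Mtus2, Ylpm1, Zfp141 and Zfp991, with SDs over VEH-Sham 1 to 4 from 0.75 for Zdhhc12 down to 0.59 for Zfp991.

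**Figure D4:**
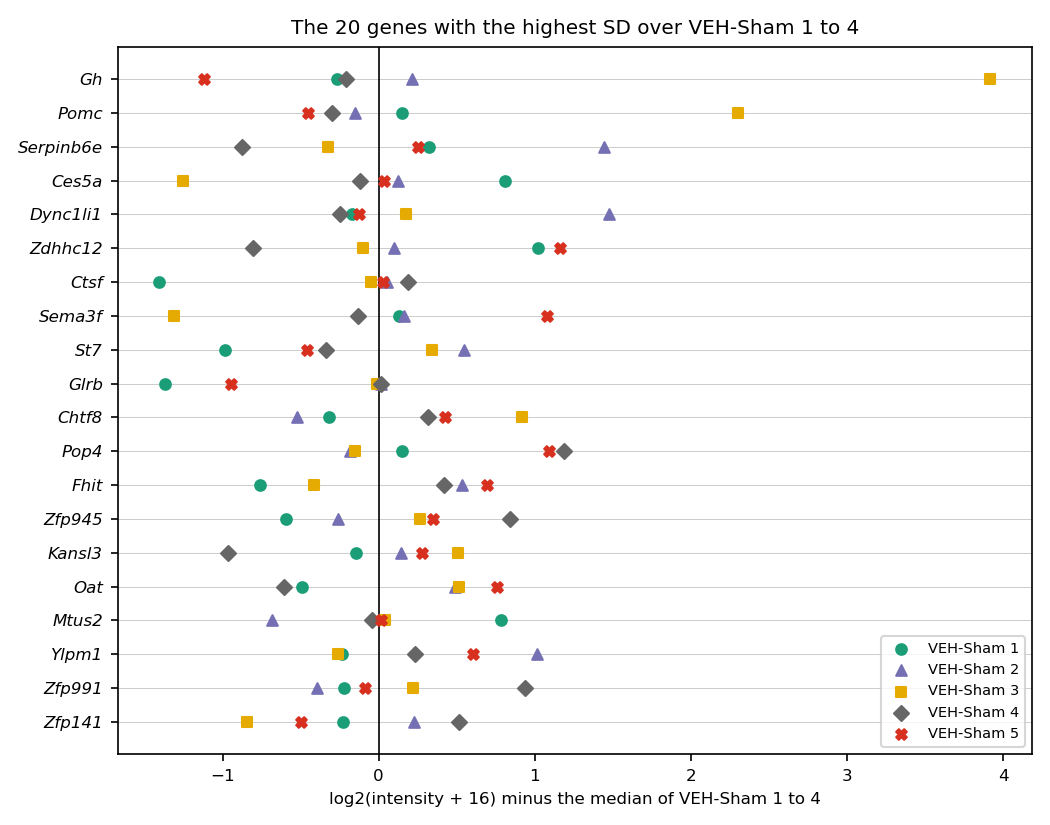
The 20 genes of the brighter 50% with the highest SD over VEH-Sham 1 to 4, each array's level given as its difference in log2(intensity + 16) from the median of VEH-Sham 1 to 4. VEH-Sham 3 (yellow square) stands 3.71 and 2.15 above the next array for Gh and Pomc.

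Some of the genes that varied in VEH-Sham also had a high SD in the other groups. Of the 20 genes, 8 were in the top 5% of genes by SD in VEH-HI and 8 in EPO-HI. The latter include Gh and Pomc, which were high in that group on EPO-HI 15 alone. Dimmer genes have a higher SD, with a median over VEH-Sham 1 to 4 of 0.19 in decile 6 and 0.11 in decile 10. The shares were not compared with those of genes of similar level, so whether variation carried over beyond the effect of level was not tested. Another probe set existed for 11 of the 20, and for 4 of these another probe set also had an SD above 0.5. Without VEH-Sham 1, 3 or 4, the 20 most variable genes shared 13, 12 and 13 with those named.

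Genes that differ between the sexes were read on all VEH-Sham arrays. Xist, the X-inactivation RNA of female cells, read 8.79, 8.05, 8.44, 8.30 and 8.17, and Y-linked Eif2s3y 7.06, 7.96, 8.09, 8.41 and 7.91. The Y-linked genes Uty (6.65 ± 0.41, SD, n = 5) and Kdm5d (6.36 ± 0.31, SD, n = 5) lay near the median level of all genes. On VEH-Sham 1, Eif2s3y (7.06), Uty (6.54) and Kdm5d (5.89) lay above the mean of the genes of other organs, 5.56. They lay below the brightest of those genes by level, Acta1, at 7.70. Uty and Kdm5d lay below Acta1 on every VEH-Sham array. Whether Y-linked signal on VEH-Sham 1 exceeds dim background was not tested. On VEH-HI 6, Xist read 4.13, with Eif2s3y at 8.96. All 5 VEH-Sham arrays lay well above that Xist value. The labels give neither sex nor pooling, and the source of these signals was not tested.

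VEH-Sham 5 differed from VEH-Sham 1 to 4 according to brightness. Its median difference from the mean of the other 4 arrays was -0.41 in deciles 3 and 4 of genes, counted from the dim end, -0.13 in decile 6 and 0.15 in decile 10. Among the lists, the median difference was 0.29 for pan-neuronal genes and 0.24 for immature neuron genes, both bright. It was -0.45 for genes of other organs and -0.55 for inflammation genes, both dim. Other lists did not follow the level. The median difference was 0.38 for genes of meninges, 0.32 for cerebellar, 0.22 for choroid plexus and 0.18 for interferon genes, whose medians lay between 5.84 and 7.23. It was -0.15 for glutamatergic genes and -0.027 for chaperones, which are brighter.

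**Figure D5:**
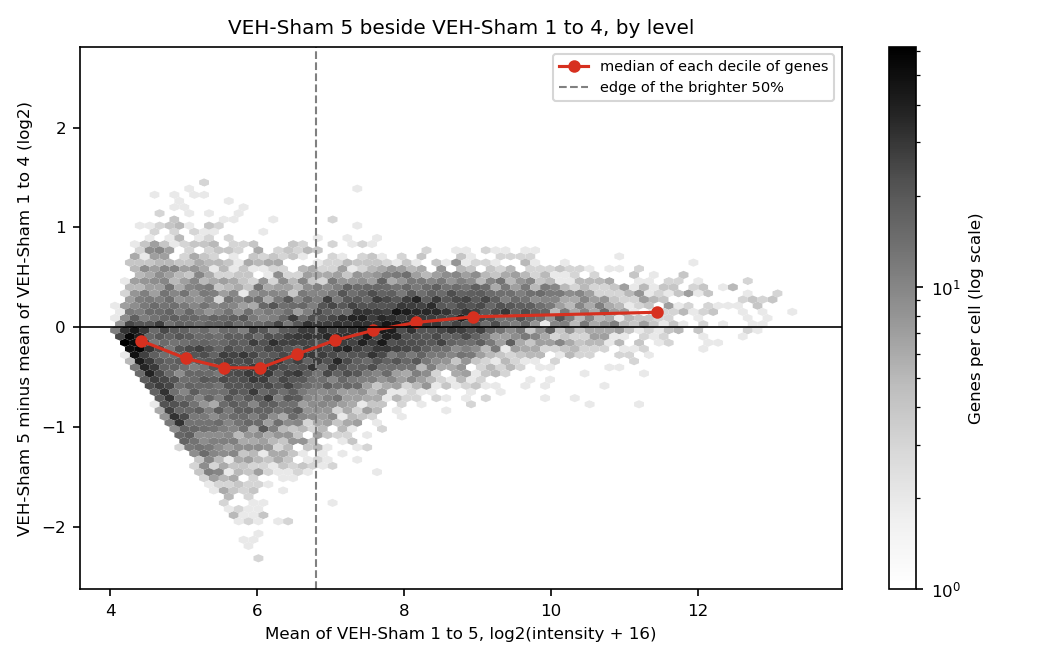
Difference of VEH-Sham 5 from the mean of VEH-Sham 1 to 4 against the mean level, both in log2(intensity + 16), for 18193 genes. Grey cells show gene density on a log scale, and red points the median of each decile of genes, which runs from -0.13 through -0.41 to 0.15.

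In the brighter 50%, 124 of 9096 genes (1.36%) were above all of VEH-Sham 1 to 4 by over 0.5 on VEH-Sham 5, and 377 (4.14%) were below. Without VEH-Sham 2 the first count was 241. Quantile normalization gave 86 above and 300 below, the same direction. Shifting all arrays to the same median turned the counts to 1888 above and 78 below, so the direction depends on which scaling is used. Of the 247 list members in the brighter 50%, 3 were above, namely Meis2, the cell cycle gene Cdc20 and the MHC gene H2-K1. The 8 below were Gh, Tac1, the thalamic signalling regulator Rgs16, Sox10, the endothelial receptor Eng, the growth factor receptor Egfr, the imprinted Snrpn and Cxcl1. Rgs16 read 7.76, 7.60, 7.91 and 7.75 on VEH-Sham 1 to 4 and 6.44 on VEH-Sham 5.

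The highest differences were in Pik3cd, Csdc2, Nrsn2 and Sema3f. Pik3cd, a leukocyte PI3-kinase subunit, read 8.76, 8.29, 8.72 and 8.65 on VEH-Sham 1 to 4 and 10.04 on VEH-Sham 5. Csdc2, an RNA-binding protein, read 9.17, 8.91, 8.83 and 9.11 against 10.43. Sema3f, an axon guidance cue, read 7.53, 7.57, 6.09 and 7.27 against 8.48. Snapc1, Zdhhc12, Chmp1a, Drg2, B9d2 and Fbll1 followed, with differences of 1.06 to 1.18.

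The lowest in the brighter 50% were Bcas2, Igdcc3, Ighg3, Kpnb1 and Gh. The difference for Gh was -2.03, and -1.03 without VEH-Sham 3. Bcas2, a splicing factor, read 10.51, 10.71, 10.90 and 10.95 on VEH-Sham 1 to 4 and 8.59 on VEH-Sham 5. Kpnb1, an importin, read 9.68, 9.74, 9.62 and 9.76 against 7.61. Kpnb1's probe set carries a suffix, and its brightest probe set without one was 0.56 higher on VEH-Sham 5. None of the 3 other Kpnb1 probe sets was lower there. Dnajb8, Ell, Casz1, Eef1aknmt and Lrch4 differed by -1.66 to -1.96. Other probe sets of the same genes moved the same way in 68 of 140 cases (48.6%) for the genes above and in 371 of 549 (67.6%) for those below. VEH-Sham 5 lay within the range of the 10 VEH-HI and EPO-HI arrays for 92 of the 124 genes (74.2%) and 292 of the 377 (77.5%), against 82.7% of all genes in the brighter 50%. The gaps just described had chosen these genes.

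The test against VEH-HI sets the sham levels beside injured forebrain. Limma with Benjamini-Hochberg adjustment called 6174 of 27022 probe sets (22.8%) at 0.05, 2661 higher (9.85%) and 3513 lower (13%) in VEH-HI. Of 13128 genes tested by their brightest probe set, 1475 were higher (11.2%) and 1657 lower (12.6%). These calls cannot be told apart from the array sets, since VEH-Sham 1 to 4 have higher medians than all VEH-HI arrays. With the array set as a block, limma called 3 probe sets (0.0111%), of which 1 is named here, Mnt, a binding partner of Max, and 1836 had an unadjusted p under 0.05. Within the array set of VEH-Sham 5 it called 7. Both fits take the VEH-Sham value of that set from VEH-Sham 5 alone, which is assumed to vary like the other groups, so a gene not called there is not shown to be equal. Without VEH-Sham 1, 3 or 4 the count was 4081, 3890 and 3824, and without VEH-Sham 5 it was 9609. With equal medians 6614 of 7727 calls were higher, and with quantile normalization 3047 of 5707. No list member and none of the 100 brightest genes was called with the block. Medians and gene values below have the difference from VEH-Sham 5 alone beside them. Lists given by counts alone have no such value, and their counts cannot be told apart from the array sets.

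Of 340 list members tested, 51 were called higher and 30 lower in VEH-HI without the block. Of the 100 brightest genes, 33 were called higher and 7 lower, with a median difference of 0.15, against -0.03 over all genes tested. The same median was 0.04 against VEH-Sham 5 alone. These genes and their probe sets were chosen by VEH-Sham level, which also enters the difference, so the counts are a description only. Rpl41 was 0.41 ± 0.11 (SE) higher in VEH-HI than in VEH-Sham (limma adjusted p = 0.014) and 0.07 higher than on VEH-Sham 5. Fth1 was 0.35 ± 0.08 higher (SE, limma adjusted p = 0.0064) and 0.23 higher than on VEH-Sham 5. Ttr was 0.30 ± 0.10 higher (SE, limma adjusted p = 0.044) and 0.03 higher than on VEH-Sham 5. Tubb2b was the other way, at -0.29 ± 0.10 (SE, limma adjusted p = 0.047) and -0.07 against VEH-Sham 5.

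The counts of list members below, without the block, stand beside 11.2% of all genes tested called higher and 12.6% called lower. Of 17 astrocyte genes, 7 were called higher in VEH-HI and none lower, with a median difference of 0.33, and 0.09 against VEH-Sham 5. Aldh1l1 was 0.83 ± 0.12 higher (SE, limma adjusted p = 0.00042) and 0.40 higher than on VEH-Sham 5. Of 14 microglial genes, 7 were called higher and 2 lower, with a median of 0.29, and 0.26 against VEH-Sham 5. C1qa was 1.00 ± 0.17 higher (SE, limma adjusted p = 0.001) and 0.97 higher than on VEH-Sham 5. Vim was 1.23 ± 0.14 higher (SE, limma adjusted p = 3.5e-05, and 0.072 with the block) and 1.27 higher than on VEH-Sham 5. Of 13 inflammation genes, 7 were called higher and none lower, with a median of 1.11, and 1.71 against VEH-Sham 5. These sizes are not exact, since the list was near the dim scale in VEH-Sham (median level 5.22). Probe sets were tested from a mean of 5.46 up, and that mean includes injured arrays. Lcn2 and Ccl2 were tested with 5.30 and 5.31 in VEH-Sham and 6.65 and 6.80 in VEH-HI. Among dim genes the filter thus favours those higher after injury, so this count and median may be too high.

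Among neuronal lists, striatal genes had none higher and 4 lower of 12, with a median of -0.25, and -0.18 against VEH-Sham 5. Pde10a was lower by -0.97 ± 0.16 (SE, limma adjusted p = 0.00098) and -0.37 against VEH-Sham 5. Maturation genes had none higher and 3 lower of 10, with medians of -0.28 and -0.24. Gabra5 was lower by -0.64 ± 0.12 (SE, limma adjusted p = 0.0023) and -0.60 against VEH-Sham 5. Pan-neuronal genes had 1 higher and 1 lower of 19, and immature neuron genes none higher and 3 lower of 17. Glutamatergic genes had none higher and 2 lower of 14, GABAergic genes 1 higher and 2 lower of 15. Meningeal genes had 4 higher of 10, endothelial genes 3 higher and 1 lower of 18, and stem and progenitor, cell cycle, imprinted and pericyte genes 2 higher each, of 10, 15, 11 and 9, with none lower. Myelin and precursor genes had 1 lower each, of 10 and 11, and none higher.

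Genes of other organs, which should be near absent from forebrain, had none higher and 4 lower of 7, with a median of -0.66, and -0.22 against VEH-Sham 5. Hypothalamic and pituitary genes had none higher and 2 lower of 9, and circadian genes none higher and 2 lower of 14. Immediate early genes had 3 higher and 1 lower of 14, and hippocampal genes 1 of each of 6. Choroid plexus, glucocorticoid-responsive, chaperone and interferon genes had 2 higher each, of 8, 10, 11 and 9, and cerebellar genes 1 higher of 7, with none lower in these lists. None of 8 thalamic, 7 olfactory bulb, 2 erythroid or 4 sex-linked genes was called either way.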

How the data were processed

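Intensities of 15 arrays were used as the authors deposited them, 1 linear intensity per probe set. From the values, every array has the same mean of 150 after trimming 2% at each end. No source used here names the summary software or a genome build. Of 45101 probe sets, 64 controls were left out. GEO's platform annotation gave 34945 of 45037 probe sets 1 symbol, 932 several and 9160 none, and 34741 symbols were matched by gene number to RefSeq's GRCm38.p6, used for names and upstream sequences only. Values were taken as log2(intensity + 16), and a gene was read from its brightest probe set with 1 symbol.

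The members, the 31 lists (414 distinct genes, 383 of them measured) and the tests were chosen with earlier results of these data known. Named genes are the 30 brightest, the 20 most variable over VEH-Sham 1 to 4, the 10 highest and 10 lowest differences of VEH-Sham 5 (brighter 50%), of each list up to the 4 brightest members, the 2 most variable and the 2 that differ most on VEH-Sham 5, and all sex-linked genes. A few further list members were named after their values were seen, as were the members called in a count.

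VEH-HI was compared with VEH-Sham by limma 3.58.1 in R 4.3.3 (3 group means over 15 arrays, eBayes with trend, Benjamini-Hochberg adjustment, threshold 0.05) on the brightest 60% of probe sets, after tests on simulated data. The array set, split where neighbouring array medians lie farthest apart, holds VEH-Sham 1 to 4 on one side and all other arrays on the other. Alternatives were the pseudocount, scaling, filter, probe set choice, the array set as a block and each array left out. The number of arrays limits the precision.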

Additional observations from a re-analysis of the deposited data

Results flagged for a closer look

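Of 113 values tested for 1 array standing apart within its group of 5, 23 had a gap to the nearest array of over 0.71 of the group's range, and chance flags about 1 in 20. VEH-Sham 5 stood apart in 12 of them. Genes chosen for their high SD over VEH-Sham 1 to 4 or for their difference on VEH-Sham 5 favour such gaps, so that rate does not apply to them and their gaps are a description only.

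VEH-Sham 3 was the highest array, with the gap as a share of the range, for Gh (0.736), Pomc (0.781) and Cga (0.713). So it was for the mean of the hypothalamus and pituitary list (0.734), which holds these genes and is not a separate observation. EPO-HI 15 was the highest of its group for the same genes, with 0.899 for Gh, 0.886 for Pomc and 0.931 for Cga. VEH-Sham 2 was the highest for Dync1li1 (0.756), and VEH-Sham 1 the lowest for Ctsf (0.851). Xist was lowest on VEH-HI 6 (0.862) and on EPO-HI 12 (0.801).

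VEH-Sham 5 was the highest array for Pik3cd (0.731), Csdc2 (0.791), Nrsn2 (0.768) and the mean of the immature neuron list (0.794). It was the lowest for Bcas2 (0.812), Igdcc3 (0.793), Ighg3 (0.829), Kpnb1 (0.933), Ell (0.724), Casz1 (0.794), Eef1aknmt (0.846) and the mean of the list of other organs (0.853).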

How the results depend on the processing

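No paired analysis was possible because the replicate numbers run from 1 to 15 through the series and no number is shared between groups. Of the 100 brightest genes, 54 stayed with the mean over probe sets, 38 without suffixed probe sets, and 98 to 99 with 1 array left out. The 49 genes varying among VEH-Sham 1 to 4 became 78 with a pseudocount of 1, 13 with 64, 96 after quantile normalization, 1500 without a filter on dim genes, 6 at an SD above 0.75, and 62 to 87 with 1 array left out. The 20 most variable genes shared 12 to 14 then. Genes above VEH-Sham 1 to 4 on VEH-Sham 5 (124) became 76 with a pseudocount of 64, 1888 with equal medians, 332 without the filter and 162 to 241 with 1 array left out. Genes below (377) became 208, 78, 1732 and 401 to 449. After quantile normalization, 86 were above and 300 below. Probe sets called against VEH-HI (6174) became 3 with the array set as a block, 7 within the lower-median set, and 3824 to 9609 with 1 array left out. The difference of VEH-Sham 5 reversed for Fbll1 (-0.021, mean over probe sets) and Kpnb1 (0.56, without suffixed probe sets). Fewer genes enter without suffixed probe sets. Otherwise the cause was not tested. The levels of all 268 named genes moved by less than 1 SD when any 1 VEH-Sham array was left out, but 135 moved by more with the mean over probe sets, 116 with a pseudocount of 64 and 79 with equal medians, as did 22, 27 and 19 of 31 list medians.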
